A study of Arabidopsis thaliana with 3 samples.

Results

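CCA1, LHY and the REVEILLE genes RVE1 to RVE8 are the 10 members of a family of MYB-related transcription factor genes that belong to, or are close relatives of, the morning part of the plant circadian clock. The rule that picked them used locus identifiers and no measured value, but the family was chosen with earlier results of these data known. CCA1 is AT2G46830, LHY is AT1G01060, and RVE1 to RVE8 are AT5G17300, AT5G37260, AT1G01520, AT5G02840, AT4G01280, AT5G52660, AT1G18330 and AT3G09600 in that order. All 10 were among the 19777 genes of the authors' deposited table. The tested plants were Arabidopsis thaliana triple mutants for SEP1, SEP2 and SEP3 that expressed SEP3Δtet, a form of the MADS-domain factor SEPALLATA3 impaired in forming tetramers, in 3 independent transgenic lines with 1 library each. They were compared with the same triple mutant without the transgene, so both genotypes lack normal SEP1, SEP2 and SEP3 function. Poly(A) RNA came from inflorescence meristems with flower buds of plants grown in long days. The oldest buds were at stage 11, 12 and 13 in lines 1, 2 and 3 by the labels of the libraries, while the series text gives stage 11 as the upper limit. The sources used here do not give the age of the plants, the promoter of the transgene, the plants per library, the number of control libraries or the hour of harvest. All 3 libraries described are of SEP3Δtet lines, and the control libraries are not among them. A difference in batch, bud stage or hour of harvest between the genotypes therefore cannot be told apart from the genotype.

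In the clock of Arabidopsis, CCA1 and LHY accumulate around dawn and repress genes that are expressed later in the day, by binding a promoter motif called the evening element. RVE4, RVE6 and RVE8 bind the same motif but activate such genes in the afternoon, together with the LNK co-activators. The pseudo-response regulators, of which PRR9 is expressed in the morning, and the evening complex of ELF3, ELF4 and LUX in turn repress CCA1 and LHY. The level of these transcripts therefore depends on the time of day at which tissue is taken.

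The encoded proteins share 1 MYB repeat with a conserved stretch of 7 residues, and this stretch splits the family into 2 groups of 5. It reads SHAQKFF in CCA1, LHY, RVE1, RVE2 and RVE7 and SHAQKYF in RVE3, RVE4, RVE5, RVE6 and RVE8. The codons that encode it are shown because they mark the groups by which the results are ordered. They were read from the RefSeq annotation of TAIR10.1, 5′ to 3′ on the coding strand, and the capitals mark the codon of the residue that differs.
CCA1: agtcacgctcagaaaTTTttc
LHY: agtcatgcacaaaagTTCttc
RVE1: agccatgctcagaagTTTttc
RVE2: agccatgcgcagaagTTCttt
RVE7: agccatgctcaaaagTTCttc
RVE3: agccacgcacagaagTACttt
RVE4: agccatgcccaaaaaTACttt
RVE5: agccacgctcagaaaTACttt
RVE6: agtcatgctcagaagTATttt
RVE8: agtcatgctcaaaaaTACttt
In the proteins with SHAQKFF, the first 5 above, the stretch starts between residue 63 in CCA1 and LHY and residue 115 in RVE7. In those with SHAQKYF it starts between residue 82 in RVE8 and residue 111 in RVE6. The longest annotated proteins have 608 residues for CCA1 and 645 for LHY, against 287 to 387 for the RVE proteins. CCA1 and LHY had 47.4% identical residues, counted over the shorter protein of the pair. The closest pair was RVE4 and RVE8 at 68.9%, followed by RVE3 and RVE5 at 62.7%, RVE6 and RVE8 at 55.0% and RVE1 and RVE2 at 54.4%. Among the proteins with SHAQKYF the lowest value was 49.0%, for RVE5 and RVE8.

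**Figure D1:**
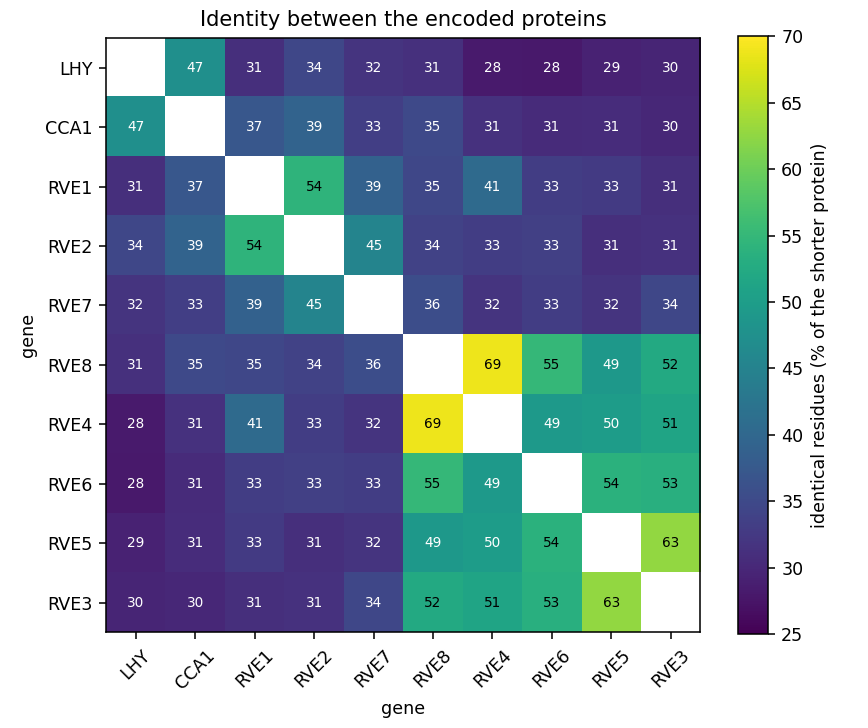
Identical residues between the proteins encoded by each pair of the 10 genes, as a percentage of the shorter protein, with colour and printed number giving the same value. RVE3, RVE4, RVE5, RVE6 and RVE8 form a block with values from 49.0% to 68.9%, and CCA1 and LHY stand at 47.4%.

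The promoters of 4 genes are shown as examples of the motif search, and whether a motif bears on a fold change was not tested. They are the promoters of LHY and CCA1, which fell, RVE7, which holds the family's evening element in this window, and the evening gene BOA, which rose. Each is the 250 bases before the annotated gene start, read 5′ to 3′ on the strand of the gene from TAIR10.1. They lie at chr1:37872-38121 on the minus strand for LHY, chr2:19245341-19245590 on the plus strand for CCA1, chr1:6308244-6308493 on the minus strand for RVE7 and chr5:24003638-24003887 on the plus strand for BOA. No other annotated gene overlaps any of the 4 stretches. Capitals mark matches to 1 of 6 motifs searched on both strands, which are the evening element AAAATATCT, the CCA1-binding site AAAAATCT, the G-box CACGTG, the TCP site GGNCCCAC, the LUX site GATTCG and the CArG box of MADS proteins.
LHY: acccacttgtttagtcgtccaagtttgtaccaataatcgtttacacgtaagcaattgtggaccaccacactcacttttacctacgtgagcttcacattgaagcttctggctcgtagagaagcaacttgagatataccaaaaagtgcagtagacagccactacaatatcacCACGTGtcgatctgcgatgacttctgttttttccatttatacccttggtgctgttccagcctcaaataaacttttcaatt
CCA1: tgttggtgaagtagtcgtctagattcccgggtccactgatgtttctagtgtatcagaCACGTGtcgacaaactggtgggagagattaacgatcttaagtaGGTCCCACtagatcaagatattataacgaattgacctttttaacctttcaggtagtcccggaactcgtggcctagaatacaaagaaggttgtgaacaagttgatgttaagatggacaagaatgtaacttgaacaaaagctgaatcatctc
RVE7: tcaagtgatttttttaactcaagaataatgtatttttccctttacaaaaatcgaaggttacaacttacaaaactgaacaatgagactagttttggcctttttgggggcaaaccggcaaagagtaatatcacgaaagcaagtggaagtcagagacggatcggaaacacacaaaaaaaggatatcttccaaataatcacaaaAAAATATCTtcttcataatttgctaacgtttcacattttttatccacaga
BOA: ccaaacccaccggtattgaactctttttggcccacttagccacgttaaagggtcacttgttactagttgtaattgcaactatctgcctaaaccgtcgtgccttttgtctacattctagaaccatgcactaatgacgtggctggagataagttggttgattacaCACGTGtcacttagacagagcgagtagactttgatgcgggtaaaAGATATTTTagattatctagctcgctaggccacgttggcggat

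CCA1 and LHY were lower in the SEP3Δtet lines than in the triple mutant, and no gene of the family was called higher. LHY had a log2 fold change of -2.67 in the authors' deposited table, a level 6.35-fold lower in the SEP3Δtet lines (F = 15.5, adjusted p = 0.0397, edgeR). CCA1 followed in the authors' deposited table with -1.51, or 2.85-fold lower (F = 14.1, adjusted p = 0.0394 by edgeR). Both are repressors of evening genes and partly redundant with each other. Only a gene with an adjusted p under 0.05 is called changed here. Of the 10 genes, 2 were called lower, where 5.88% of all genes were (1163 of 19777 in the authors' deposited table). None of the 10 was called higher by edgeR's test, where 11.6% of all genes were (2294), and 1 of the 10 was higher at an unadjusted p under 0.05, where 17.1% of all genes were. At that unadjusted threshold 4 of the 10 were lower, where 12.6% of all genes were. Neither CCA1 nor LHY was called at an adjusted p under 0.01.

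The median log2 fold change of the 10 genes was -0.35, against -0.0009 over all genes of the authors' deposited table. The log2 fold change was below 0 for 7 of the 10 genes, and for 50.1% of all genes. The table gives 1 value per gene, so the level in each line, and whether all 3 lines carried a change, is not known. In RNA of whole meristems and buds, fewer cells that express a gene and less of its RNA per cell cannot be told apart. As a check of the direction, SEP3 transcripts were 4.82-fold more abundant in the SEP3Δtet lines in the authors' deposited table (adjusted p = 0.000114 by edgeR). All 6 markers of inflorescences and flower buds looked up (LFY, AP1, AG, AP3, PI and WUS) were measured, with an average abundance from 2.69 log2 CPM for WUS to 7.81 log2 CPM for AP1 in the authors' deposited table. By edgeR 3 of these 6 markers were higher (AP3, PI and WUS), 2 were lower (LFY and AP1) and 1 was not called, where 11.6% of all genes were higher and 5.88% lower. The log2 fold changes were, for example, 2.01 for WUS and -0.73 for LFY in the authors' deposited table. Whether these values and those of the clock genes are linked was not tested.

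**Figure D2:**
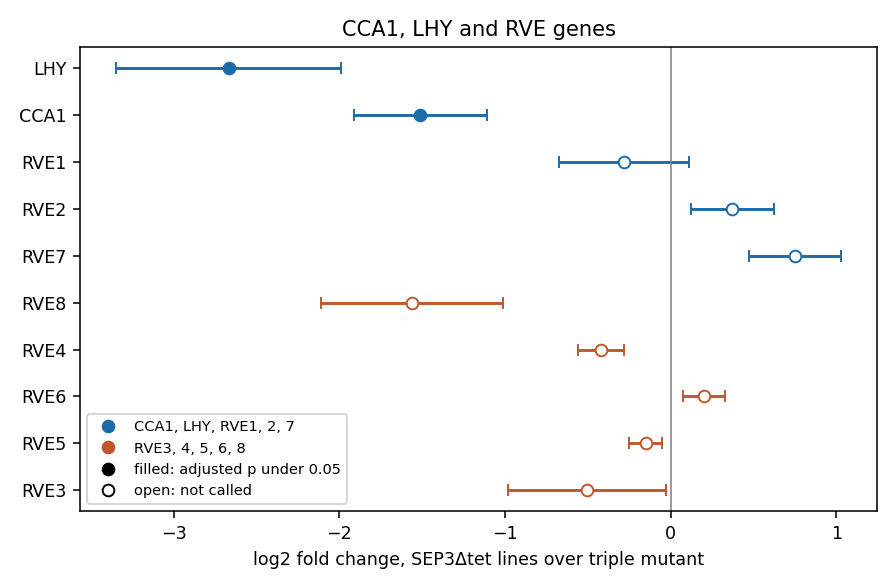
Log2 fold change of each gene, SEP3Δtet lines over triple mutant, in the authors' deposited table; bars reach 1 error implied by F to each side and are no SD between lines. LHY at -2.67 and CCA1 at -1.51 are filled because they were called, and RVE8 lies at -1.56 without a call.

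Of the genes with SHAQKFF, RVE1, RVE2 and RVE7 were not called. RVE7, also named EPR1 for its early response to phytochrome, had the largest positive log2 fold change of the family, 0.75 in the authors' deposited table (p = 0.0222, adjusted p = 0.0964 by edgeR). RVE2, also named CIR1, had 0.37 in the authors' deposited table (adjusted p = 0.368 by edgeR). RVE1, which links the clock to auxin synthesis and hypocotyl growth and acts in seed dormancy, had -0.28 in the authors' deposited table (adjusted p = 0.696 by edgeR). The value of RVE7 is uncertain for another reason. AT3G10113, a gene that is not among the rows of the authors' deposited table, encodes a protein with 95.2% identity to RVE7 over the shorter of the pair. Of the stretches of 50 bases in the RVE7 coding sequence, 70.8% also occur in that of AT3G10113, and the sources used here do not say how reads that match both were counted. No other gene of the family shared any such stretch with another member.

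None of the 5 genes with SHAQKYF was called by edgeR's test. At an unadjusted p under 0.05, 2 of them, RVE4 and RVE8, were lower, where 12.6% of all genes were. RVE8, the activator of afternoon genes, had a log2 fold change of -1.56 in the authors' deposited table, close to the value of CCA1 in size (F = 8.08, p = 0.024, adjusted p = 0.102 by edgeR). That value corresponds to a 2.95-fold lower level in the SEP3Δtet lines in the authors' deposited table, but RVE8 did not pass the test and is not called changed. RVE4, its nearest relative, had -0.42 in the authors' deposited table and missed the threshold narrowly (p = 0.00988, adjusted p = 0.0545 by edgeR). RVE6, the other activator, had 0.20 in the authors' deposited table (adjusted p = 0.322 by edgeR). RVE3 (-0.51, adjusted p = 0.539) and RVE5 (-0.15, adjusted p = 0.36), which act with RVE4, RVE6 and RVE8 in the clock and in growth, were not called by edgeR in the authors' deposited table either. RVE4 and RVE8 encode the most similar pair of proteins, and the log2 fold change of RVE8 minus that of RVE4 was -1.14 in the authors' deposited table. This difference between genes was not tested, since the table holds no values per library.

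LHY, RVE8 and CCA1, with the 3 largest log2 fold changes in size, had wide errors for their abundance. With 1 degree of freedom in the numerator, the log2 fold change divided by the square root of F gives the error that the authors' fit implies for it. This error was 0.68 log2 units for LHY, at percentile 99.4 of the 500 genes nearest in average abundance. It was 0.55 for RVE8 (percentile 98.4), 0.40 for CCA1 (percentile 99), 0.39 for RVE1 (percentile 97) and 0.28 for RVE7 (percentile 96.2). For comparison, the median error of genes of like abundance was 0.10 log2 units beside LHY and 0.13 beside RVE8. So 5 of the 10 genes stood above percentile 95, as did 5.04% of all genes, a share that the definition of the percentile fixes. RVE4 (0.14, percentile 84) and RVE2 (0.25, percentile 85.4) were closer to their neighbours. RVE5 (0.099, percentile 5.6), RVE6 (0.13, percentile 18.2) and RVE3 (0.48, percentile 27.7) had errors below the middle of theirs. A missed call of RVE1 or RVE8 therefore does not show an equal level in both genotypes.

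**Figure D3:**
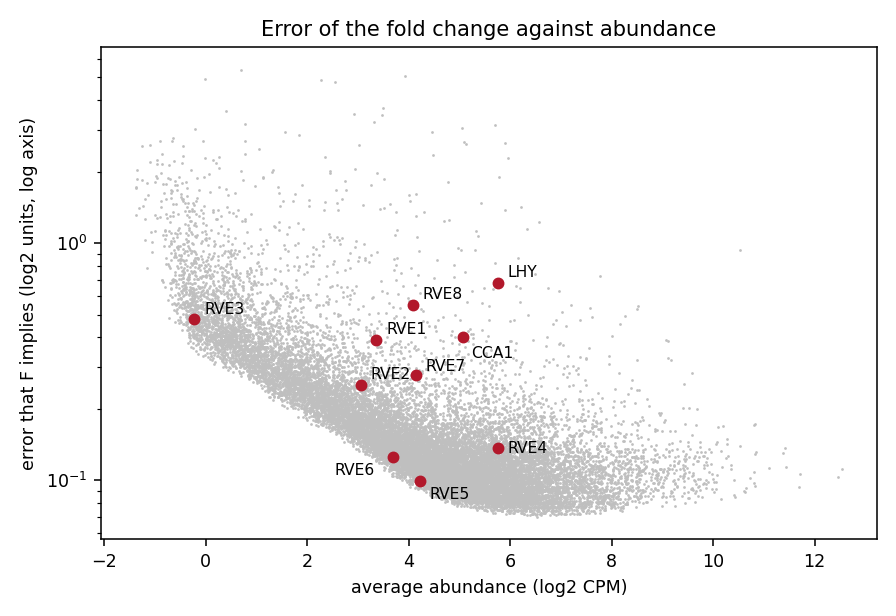
Error implied by F (log2 units, log axis) against average abundance (log2 CPM) for every gene with F above 0 in grey, with the 10 genes in red. LHY at 0.68, RVE8 at 0.55 and CCA1 at 0.40 lie above most genes of like abundance, and RVE5 at 0.099 lies at the lower edge.

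The denominator degrees of freedom behind each p also differed between the genes. Solved from F and p, they were 11.85 for 86.1% of the 17867 genes where they could be solved, to within 0.02. They were fewer for 13.9% of those genes, and for 6 of the 10 genes described here. LHY had 6.58, RVE8 had 7.24, CCA1 had 7.51, RVE1 had 9.38, RVE7 had 9.86 and RVE2 had 11.78. RVE3, RVE4, RVE5 and RVE6 were at the common value. The 6 genes with fewer were also those with the highest percentiles of implied error, so these readouts overlap in the family. All 5 genes with SHAQKFF and 1 of the 5 with SHAQKYF had fewer degrees of freedom. With fewer degrees of freedom the same F gives a larger p, and LHY had the larger F of the 2 called genes and the larger p (0.00639, against 0.00627 for CCA1 in the authors' deposited table). How the authors' fit set these degrees of freedom is unknown.

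The average abundance, over all libraries of both genotypes, was highest for LHY (5.76 log2 CPM) and RVE4 (5.76) and lowest for RVE3 (-0.22) in the authors' deposited table. Per kilobase of annotated exon, RVE4 was the most abundant at 4.68 log2 CPM per kb, followed by LHY at 3.99 and CCA1 at 3.63. RVE7 (3.13), RVE2 (3.09), RVE5 (3.06), RVE6 (2.96) and RVE8 (2.86) followed closely on each other. RVE1 had 2.36 and RVE3 had -0.89 log2 CPM per kb. These levels have no error, so neighbours in this order cannot be told apart by a test.

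The 10 genes lie on all 5 chromosomes, at these positions of TAIR10.1. LHY covers bases 33365 to 37871 of chromosome 1 on the minus strand, and CCA1 bases 19245591 to 19248915 of chromosome 2 on the plus strand. RVE8 covers bases 2946239 to 2949017 of chromosome 3 and RVE4 bases 648648 to 651979 of chromosome 5, both on the plus strand. Of the 20 nearest protein-coding neighbours, 12 were in the authors' deposited table, with a median log2 fold change of -0.05. Of these, 1 was lower and 0 were higher by edgeR's test, where 5.88% and 11.6% of all genes were. At an unadjusted p under 0.05, 3 were lower and 0 higher, where 12.6% and 17.1% of all genes were. The called gene was AT2G46820, a photosystem I subunit gene whose annotated end is 450 bases from the start of CCA1 (log2 fold change -0.60, adjusted p = 0.000469 by edgeR in the authors' deposited table). Both neighbours of LHY were measured and not called, AT1G01050 with 0.0006 and AT1G01070 with -0.49 in the authors' deposited table. AT5G02830, 110 bases before RVE4 and on the other strand, had -0.43 (adjusted p = 0.0503 by edgeR), next to the -0.42 of RVE4 in the authors' deposited table. Annotated genes overlap RVE5 (AT4G01290, 681 bases, opposite strand), RVE3 (AT1G01510, 65 bases, same strand) and RVE1 (AT5G17305, 225 bases, opposite strand). Without knowledge of how strand was treated, reads from the stretches on opposite strands cannot be told apart. Strand cannot separate reads from the stretch that RVE3 and AT1G01510 share.

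The G-box, a motif bound by light-signalling factors of the bHLH and bZIP families, was common in the family. In the window from 250 bases before to 50 bases after the annotated start, 7 of the 10 genes held it, against 7.68% of 27443 protein-coding genes. These were CCA1, LHY, RVE1, RVE2, RVE3, RVE5 and RVE8. Of the 52 other genes looked up, 12 held the G-box as well, 5 with a log2 fold change above 0 and 7 below 0. The match lay at positions -80 to -75 from the start of LHY and -193 to -188 from that of CCA1, in capitals in the stretches printed above. Of the 7 holders in the family, 6 had a log2 fold change below 0, and of the other 3 genes RVE4 did. Only CCA1 and LHY of the 7 were called. The match of RVE8 lies after the annotated start, at positions 12 to 17. With only the 250 bases before the start, 5 of 6 holders and 2 of the other 4 genes were below 0. The TCP site, through which the factor CHE binds CCA1, was found in CCA1 alone (1.32% of all genes), and the CCA1-binding site in RVE2 and RVE6 (7.88%). The evening element was found in RVE7 alone, at positions -50 to -42 (2.82% of all genes). The CArG box was found in RVE6 (3.05%), and the LUX site in none of the 10 (9.58%). The windows of RVE3, RVE4 and RVE5 overlap a neighbouring gene. A match is a run of letters, and binding was not measured.

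**Figure D4:**
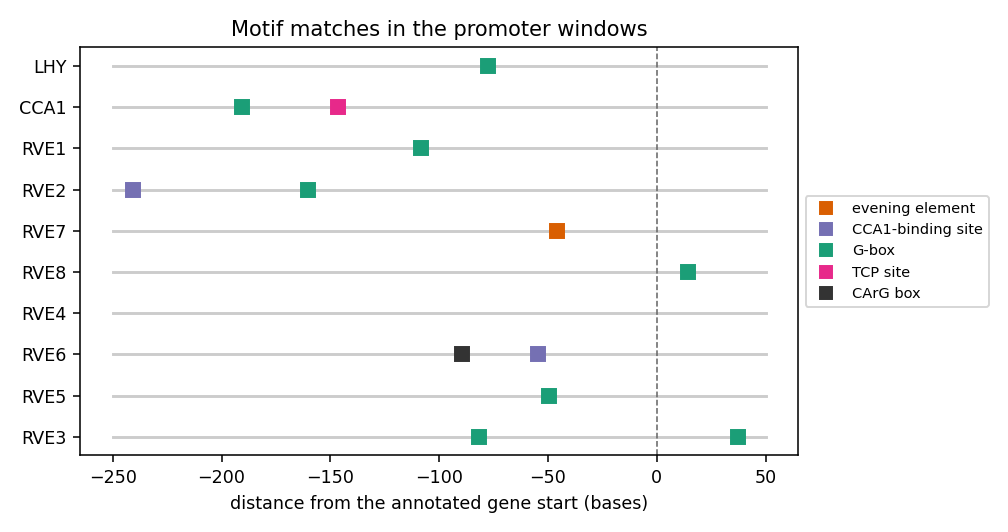
Positions of motif matches in the window from 250 bases before to 50 bases after each annotated gene start, in bases from that start (dashed line). The G-box is in 7 of the 10 windows, the evening element in that of RVE7, and RVE4 has no match.

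Among the other clock genes, 3 of the 4 LNK co-activators, which work with RVE4 and RVE8, were lower, where 5.88% of all genes were. LNK1 (log2 fold change -0.60, adjusted p = 0.0162), LNK2 (-1.08, adjusted p = 0.0434) and LNK4 (-0.95, adjusted p = 0.0312) fell by edgeR's test in the authors' deposited table. LNK3 had -1.03 in the authors' deposited table (adjusted p = 0.173 by edgeR), so all 4 values were below 0. The median of the 4 was -0.99, and LNK2 lost its call when fold changes were recentred on abundant genes. None of the 5 pseudo-response regulators was called by edgeR. At an unadjusted p under 0.05, 1 was higher and 1 lower, where 17.1% and 12.6% of all genes were. The higher one was TOC1, an evening gene repressed by CCA1 and LHY (0.69, adjusted p = 0.136). The lower one was PRR9, expressed in the morning (-0.97, adjusted p = 0.0576 by edgeR in the authors' deposited table). The largest value of that list was 1.27 for PRR3 in the authors' deposited table (adjusted p = 0.313 by edgeR). Of the 4 evening complex genes, BOA, a homologue of LUX that binds the CCA1 promoter, rose (1.67, adjusted p = 0.0236 by edgeR in the authors' deposited table). LUX (1.20, adjusted p = 0.0505), ELF4 (2.36, adjusted p = 0.228) and ELF3 (0.33, adjusted p = 0.285) were not called by edgeR in the authors' deposited table, and all 4 values were above 0.

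Of 15 further clock components, 3 rose and the other 12 were not called by edgeR's test, which found 0 lower. At an unadjusted p under 0.05, 3 were higher and 0 lower, where 17.1% and 12.6% of all genes were. JMJD5, a histone demethylase gene co-expressed with TOC1, rose by 2.07 log2 units (adjusted p = 0.00361 by edgeR in the authors' deposited table). COR28, a cold-regulated gene that feeds back on the clock (2.20, adjusted p = 0.0327), and LWD2, a close homologue of the clock gene LWD1 (0.45, adjusted p = 0.0261), rose as well by edgeR in the authors' deposited table. COR27 had 2.53 and FKF1 1.87 in the authors' deposited table without a call (adjusted p = 0.177 and 0.39 by edgeR). Their implied errors were 1.08 and 1.24 log2 units, at percentiles 99.6 and 100 of genes of like abundance. Over these 4 lists, 4 of 28 genes were higher and 3 lower, where 11.6% and 5.88% of all genes were. An implied error above percentile 95 was found for 14 of the 28, as for 5.04% of all genes. The median of the 28 was 0.16. In 20 of the 28 the degrees of freedom were fewer than the common value.

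**Figure D5:**
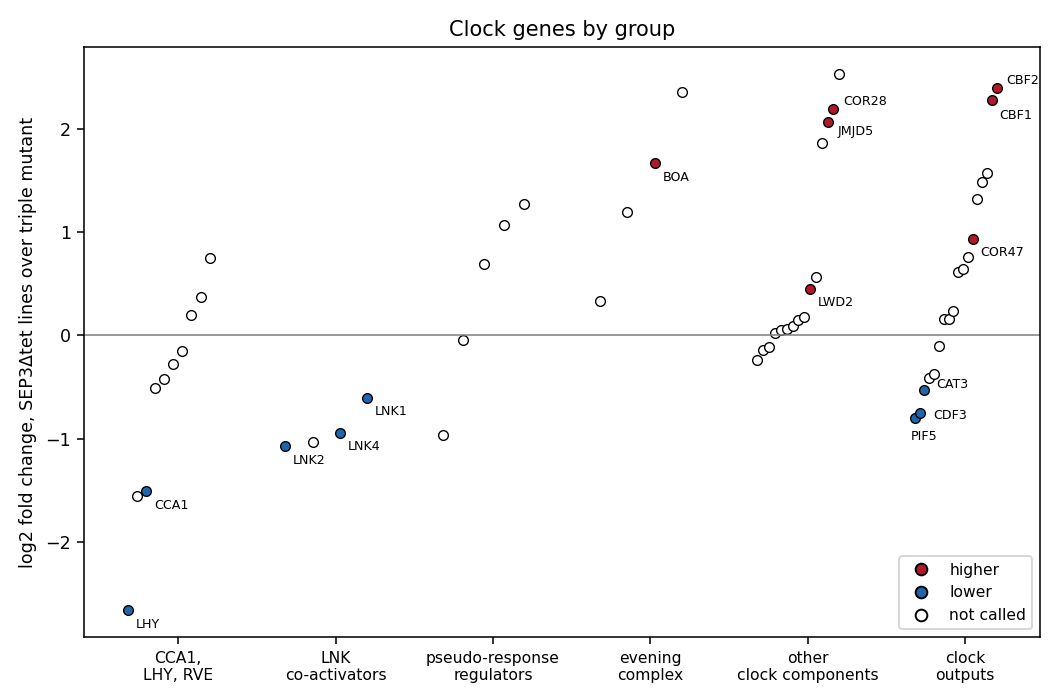
Log2 fold change, SEP3Δtet lines over triple mutant, of each measured gene by group in the authors' deposited table, sorted within a group; names are given for called genes. The LNK genes lie below 0 and the evening complex genes above it, and LHY is the lowest point at -2.67.

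Of 18 measured output genes, 3 rose, 3 fell and 12 were not called, where 11.6% of all genes rose and 5.88% fell. CBF1 (2.29, adjusted p = 0.029), CBF2 (2.40, adjusted p = 0.0133) and COR47 (0.94, adjusted p = 0.0264), genes of the cold response, rose by edgeR's test in the authors' deposited table. CBF1 and CBF2 averaged -0.26 and 0.50 log2 CPM there, where few reads stand behind a value of the authors' deposited table. PIF5, a growth-promoting bHLH gene (-0.81, adjusted p = 0.0346), CDF3, a DOF factor gene (-0.75, adjusted p = 0.0151), and the catalase gene CAT3 (-0.53, adjusted p = 0.0226) fell by edgeR in the authors' deposited table. GRP7, an RNA-binding protein gene with an evening peak, had 1.48 without a call (adjusted p = 0.361 by edgeR in the authors' deposited table). None of the 3 measured genes that RVE1 is known to act on was called by edgeR. At an unadjusted p under 0.05, 1 was higher and 1 lower, where 17.1% and 12.6% of all genes were. The 3 values ranged from -0.22 for PORC to 2.56 for PORA (adjusted p = 0.136 and 0.126 by edgeR in the authors' deposited table), and PORA averaged -0.56 log2 CPM.

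The evening element, the motif that CCA1, LHY and RVE8 bind, was found in the window of 14 of the 52 other genes looked up, all of them measured. The log2 fold change was above 0 for 12 of these 14 and below 0 for PRR9 and CAT3, with a median of 1.34 in the authors' deposited table. Over all genes it was above 0 for 9795 of 19777. By edgeR's test 3 of the 14 were higher (BOA, JMJD5 and COR28), where 11.6% of all genes were. Only 1 was lower (CAT3), where 5.88% of all genes were, and the others were not called. The median thus includes uncalled values with wide errors. The implied errors were 1.24 log2 units for FKF1, 1.08 for COR27, 0.94 for PRR5 and 0.93 for GRP7. Among genes of like abundance, the errors of the 14 ranged from percentile 80.0 for PORA to 100 for FKF1 and GRP7. PORA, also uncalled, averaged -0.56 log2 CPM. The matches of JMJD5, COR28 and PRR9 lie after the annotated start. In the 250 bases before it alone there were 11 holders with a median of 1.20 in the authors' deposited table, of which edgeR called BOA higher and CAT3 lower. The other 35 measured genes of the lists had a median of 0.10 in the authors' deposited table, with 21 values above 0. In the BOA stretch printed above, the element lies on the reverse strand, at positions -43 to -35. The genes of these lists are not independent of each other, and the difference between holders and the rest was not tested.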

How the data were processed

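Poly(A) RNA libraries of 3 SEP3Δtet lines were sequenced with paired reads of 150 bases. The submitters' processing notes name STAR, featureCounts, edgeR and TAIR10; versions, filters, strand setting and model are not given. The deposited comparison table holds for each gene, per the file headers, the log2 fold change, average abundance in log2 CPM, an F score, a p-value and an adjusted p-value, the columns of edgeR's quasi-likelihood F-test. It holds no values per library, so the depth of each library is unknown and none could be left out. A positive value was taken to mean a higher level in SEP3Δtet lines.

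Recomputing the Benjamini-Hochberg adjustment across the 19777 genes gave back the deposited adjusted p-values to within 1.8e-15, and calls use an adjusted p under 0.05. Implied errors, degrees of freedom and percentiles were computed from F and p with scipy 1.17.1; 67 genes with F of 0 have no implied error. Coordinates, coding sequences and promoters were read from the RefSeq annotation and genome of TAIR10.1 and never joined to other coordinates. Proteins (longest coding sequence per gene) were aligned globally with Biopython 1.88 (BLOSUM62, gap scores 10 and 0.5, end gaps free). Motifs were searched on both strands, and no motif contains another. The code was tested on simulated data.

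The 10 genes and all lists were chosen with earlier results of these data known. Named are all 10 genes, SEP3, the called members of each list, and where few passed those with the largest positive and negative value; LUX, ELF3, LNK3, TOC1, FKF1, GRP7, COR15A and the neighbours not called were named after their values were seen. YUC8 and GA3OX2 were looked up and are not analysed here. Alternatives were other thresholds, filters on abundance, recentring and other promoter windows.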

Additional observations from a re-analysis of the deposited data

How the results depend on the processing

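No paired analysis was possible because the table holds 1 comparison and no values per library; fits without replicate 1, 2 or 3 were not run for the same reason. CCA1 and LHY stayed called when a change of 1 log2 unit was required, with only genes of at least 1 or at least 4 log2 CPM, after recentring on abundant genes and without the 152 rows with a suffix. With 0.01 as the threshold, and under Bonferroni, 0 of the 10 genes were lower, and at 0.1 RVE4 joined the lower genes and 1, RVE7, was higher. No member could change direction, because only recentring altered the log2 fold changes. It subtracted a median of -0.04, smaller in size than the value of any member.

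For the 49 other clock and output genes measured, 0 were lower and 1 (JMJD5) higher at a threshold of 0.01, and 0 and 0 under Bonferroni. Requiring 1 log2 unit left 1 lower, and a minimum of 4 log2 CPM left 2 higher. Recentring made LUX and COR15A higher and ended the call of LNK2 (5 lower, 9 higher). Of the flanking genes 3 were lower at 0.1, 0 under Bonferroni and 0 when 1 log2 unit was required. In the 1000 bases before the start, a window added after the data were seen, 2 members held the LUX site (28.2% of all genes) and 2 the CArG box (7.21%). Over the whole table, 2294 genes were higher and 1163 lower, against 481 and 14 under Bonferroni, 1482 and 419 at 0.01, 2828 and 1813 at 0.1, 1562 and 74 at 1 log2 unit, and 707 and 861 above 4 log2 CPM. The sequencing depth, and with it the precision of low values such as that of RVE3, is unknown.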
